A study of Mus musculus with 6 samples.

Results

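Fragments of the nuclear-encoded cysteine tRNA were described in primary pulmonary artery smooth muscle cells of wild type mice, which contract to narrow the arteries of the lung. Of 38798 distinct tRNA-derived small RNAs (tsRNAs) in the deposited table, 1164 were taken because every annotation they carry names this tRNA (mature-tRNA-Cys-GCA). They held 79590 of 8966706 counts, or 0.888%. The 6 sequences that tRNA-Cys shares with other tRNAs, with 142 counts in all, were left out.

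The study sequenced small RNA from 3 hypoxia cultures, held in 3% oxygen for 24 hours, and 3 normoxia cultures kept at standard oxygen. All cells were wild type and primary, and the replicates are described as biological. Pandora-seq was used, a method that enzymatically removes some base modifications and end groups which would keep a fragment out of a small RNA library. A table of tRNA fragments holds no marker mRNA, so the identity of the cells was not checked.

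Transfer RNA carries amino acids to the ribosome, and tRNA-Cys reads both cysteine codons through its GCA anticodon. Under stress, nucleases such as angiogenin cut tRNAs in exposed loops, and the pieces can act on their own. Fragments from the 5′ end of tRNA-Ala and tRNA-Cys open with a run of G, and this run is known to let them form G-quadruplexes and hold back the start of translation.

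RefSeq annotates 57 nuclear tRNA-Cys-GCA genes in the mouse (GRCm38.p6), of which 49 lie on chromosome 6 between 47978997 and 48363603, a stretch of 385 kb. Another 5 lie on chromosome 11, 2 on chromosome 9 and 1 on chromosome 17. The fragments were not assigned to single genes. The mature tRNA below was joined from overlapping fragments of the table. It is shown to place the fragments, 5′ to 3′ and written with T for U, with the GCA anticodon at positions 33 to 35 in capitals.
mature tRNA-Cys-GCA: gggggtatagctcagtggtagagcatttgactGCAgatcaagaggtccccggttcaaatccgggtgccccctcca
It is 75 nt long, of which 72 are encoded and the last 3 are the CCA tail, and 56 of the 57 annotated genes are also 72 nt long. All 21 base pairs expected of its 4 stems can form, 2 of them as G-T pairs. Of the 1164 fragments, 650 match it exactly and hold 76.2% of the family's counts. Another 422 differ from it by 1 base and hold 22.1%, and 92 differ by 2 bases. All positions below are counted from 1 at the tRNA's 5′ end.

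The most abundant fragments of each class show where the sequenced pieces began and ended. Whether a cut at that base gave each end was not tested. The first 4 are 5′ fragments with the opening run of G in capitals, and the last is the most abundant 5′ fragment of tRNA-Ala, shown for its shorter run.
5′ fragment of 15 nt: GGGGGtatagctcag
5′ fragment of 17 nt: GGGGGtatagctcagtg
5′ fragment of 18 nt: GGGGGtatagctcagtgg
5′ fragment of 29 nt: GGGGGtatagctcagtggtagagcatttg
tRNA-Ala 5′ fragment of 15 nt: GGGGatgtagctcag
The 4 most abundant internal fragments follow, with the anticodon in capitals where they hold it, and then the leading fragment that ends in the CCA tail, with that tail in capitals.
internal, 14 to 32: agtggtagagcatttgact
internal, 14 to 39: agtggtagagcatttgactGCAgatc
internal, 16 to 32: tggtagagcatttgact
internal, 31 to 45: ctGCAgatcaagagg
CCA end, 58 to 75: atccgggtgccccctCCA

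Libraries held 510519 to 2563749 counts in hypoxia and 330787 to 2217965 in normoxia. The libraries numbered 1 were the shallowest of both groups and stood apart in makeup, with 5′ fragments at 36.6% (hypoxia) and 34.6% (normoxia) of all tsRNA counts against 52.96% to 58.6% in the other 4. Results are therefore also given for libraries 2 and 3 alone. Many members were rare: 731 had under 10 counts over all libraries and 248 had 1. All 6 libraries held 188 of them. The filter on low counts kept 172 members, 14.8% of the sequences with 88.7% of the family's counts.

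tRNA-Cys was an intermediate source of fragments, 28th of 51 nuclear families by mean CPM (counts scaled to 1000000 tsRNA counts per library). Its total was 12908, 9789 and 8227 CPM in hypoxia libraries 1, 2 and 3, and 12664, 7698 and 7695 CPM in normoxia libraries 1, 2 and 3. Each hypoxia library lay above the normoxia library of the same number, by 1.02 times for number 1, and the ranges of the groups overlapped. With totals scaled by the trimmed mean (TMM), the family sum was 5401, 8077 and 6906 scaled CPM in hypoxia and 5578, 6495 and 6383 in normoxia. Scaling thus placed both libraries numbered 1 lowest, where plain CPM placed them highest. The log2 change with hypoxia was 0.14 (SE 0.24; edgeR quasi-likelihood test, adjusted p = 0.996), against a median of -0.07 over the 73 families, of which 0% were called. In libraries 2 and 3 alone the change was 0.20 (SE 0.11; edgeR, adjusted p = 0.264).

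The fragments fell into 107 from the 5′ end, 1019 internal ones, 29 ending in CCA and 9 that end at the last encoded base without CCA. The 5′ fragments stood at 3060, 5305 and 4233 CPM in hypoxia and 2833, 4231 and 4133 CPM in normoxia. Internal fragments reached 9228, 4185 and 3734 CPM in hypoxia against 9344, 3225 and 3271 CPM in normoxia. Fragments ending in CCA, where the amino acid is attached, had 599, 295 and 259 CPM in hypoxia and 463, 242 and 290 CPM in normoxia. The internal class was higher in each library numbered 1 than in any of the other 4, while the 5′ class was lowest there. The 9 fragments without CCA had at most 11 counts in a library.

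No class passed the test. The log2 change was 0.14 for 5′ fragments (SE 0.63), 0.13 for internal ones (SE 0.28) and 0.12 for CCA ends (SE 0.37), each with an adjusted p of 0.996 in edgeR, where 0% of 240 class sums were called. Leaving out hypoxia library 2 or normoxia library 1 turned the 5′ value to -0.25 or -0.22. In libraries 2 and 3 alone the values were 0.15 (SE 0.15), 0.24 (SE 0.13) and 0.02 (SE 0.23). With the replicate number as a block they were 0.12 (SE 0.15), 0.14 (SE 0.15) and 0.12 (SE 0.24), none called by edgeR. The 5′ share of the family's counts was 23.7%, 54.2% and 51.5% in hypoxia and 22.4%, 55.0% and 53.7% in normoxia. The means were 43.1% ± 16.9 and 43.7% ± 18.5 (SD, n = 3 each; two-sided exact permutation test, p = 0.9, where 0.1 is the smallest value possible), and the spread came from the libraries numbered 1. Without hypoxia library 1 the difference of means turned from -0.568 to 9.14 percentage points.

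**Figure D1:**
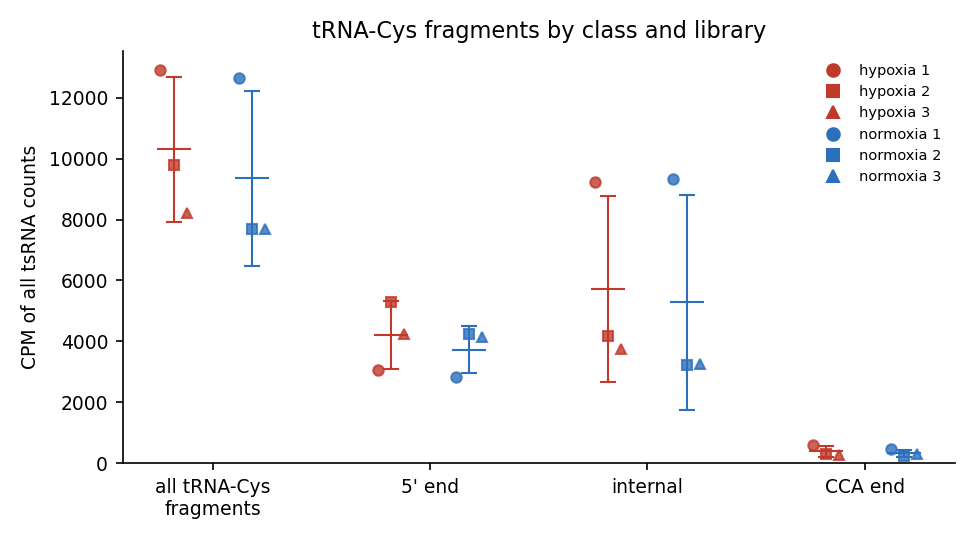
CPM of all tsRNA counts (y axis) for all tRNA-Cys fragments and for 3 classes (x axis) in each library, with hypoxia in red and normoxia in blue. Wide bars are means and whiskers are 1 SD of 3 libraries. The circles, libraries numbered 1, are highest for internal fragments (9228 and 9344 CPM) and lowest for 5′ fragments (3060 and 2833 CPM).

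Mitochondrial tRNA-Cys, which serves translation inside the mitochondrion and is encoded separately, was compared as the other cysteine tRNA of the cell. Its family sum was 193, 160 and 157 scaled CPM in hypoxia and 212, 168 and 166 in normoxia. The log2 change was -0.10 (SE 0.24; edgeR, adjusted p = 0.996), so neither cysteine tRNA passed the test. Of all families, tRNA-Val-TAC, tRNA-Leu-CAG and tRNA-His-GTG followed the nuclear tRNA-Cys sum most closely, with Pearson correlations of log2 scaled sums of 0.91, 0.90 and 0.89 over the 6 libraries. In all of them the libraries numbered 1 were lowest, and these points share library and depth.

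The run of G at the 5′ end set tRNA-Cys and tRNA-Ala apart from every other nuclear tRNA in the table. Of 107 tRNA-Cys 5′ fragments, 84 opened with at least 4 G, and these held 99.0% to 99.9% of the class's counts in each library. For tRNA-Ala the number was 104 of 118. Among the 1425 5′ fragments of other nuclear tRNAs it was 0. A run of at least 5 G was held by 98.9% to 99.8% of tRNA-Cys 5′ counts in each library but by 5.09% to 10.1% of those of tRNA-Ala.

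tRNA-Ala was by far the larger source. Its 5′ counts exceeded those of tRNA-Cys by 8.22, 36.9 and 41.9 times in hypoxia libraries 1 to 3 and by 10.5, 48.3 and 62.2 times in normoxia libraries 1 to 3. The log2 ratio of tRNA-Cys to tRNA-Ala was higher in hypoxia in 3 of 3 same-numbered pairs, by 0.44 on average, yet the groups overlapped (two-sided exact permutation test, p = 0.5). Over the 3 pairs a sign-flip permutation test gave p = 0.25, the smallest it can give. Without hypoxia library 1 the difference was -0.31 and without normoxia library 3 it was -0.05. In libraries 2 and 3 alone it was 0.48.

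The lengths of the 5′ fragments differed between these tRNAs in every library. Fragments of 30 to 40 nt, ending in or near the anticodon loop, made up 25.2%, 25.7% and 34.3% of tRNA-Cys 5′ counts in hypoxia and 30.1%, 24.8% and 20.8% in normoxia. The same lengths held 0% to 0.0406% of tRNA-Ala 5′ counts in any library. The mean difference within a library was 26.8 ± 4.71 percentage points (SD, n = 6), and tRNA-Cys was higher in 6 of 6 libraries. The two-sided exact sign-flip permutation test gave p = 0.0312, the smallest it can give with 6 libraries, and 0.0625 after Benjamini-Hochberg adjustment over 4 such comparisons. This test counts the 6 libraries as independent, though same-numbered libraries deviated together, and over 3 pairs an exact test cannot go below p = 0.25. Against all other nuclear tRNAs as a pool, whose share ran from 18.98% to 35.8%, the difference was -0.179 ± 7.16 points (SD, n = 6; exact permutation p = 0.969). Their families were not compared one by one.

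In absolute terms, tRNA-Cys gave 770, 1361 and 1450 CPM of 5′ fragments of 30 to 40 nt in hypoxia and 853, 1049 and 858 CPM in normoxia. tRNA-Ala gave 0, 19.1 and 16.9 CPM in hypoxia and 12.1, 16.7 and 15.95 CPM in normoxia, with at most 49 counts in a library. Among 5′ fragments that open with at least 4 G, tRNA-Cys therefore held 98.2% to 100% of the counts at 30 to 40 nt in each library, and 1.20% to 8.18% at 15 to 29 nt. The G-led fragments of 30 to 40 nt were nearly all from tRNA-Cys in both groups. Those of 15 to 29 nt, taken as a whole, were nearly all from tRNA-Ala. The longest of these went the other way in share. Fragments of 29 nt made up 8.92% to 21.9% of tRNA-Cys 5′ counts in a library, but 0.00779% to 0.0832% of those of tRNA-Ala. For the long tRNA-Cys fragments the groups overlapped (1194 ± 370 and 920 ± 112 CPM, SD, n = 3 each; exact permutation p = 0.4).

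**Figure D2:**
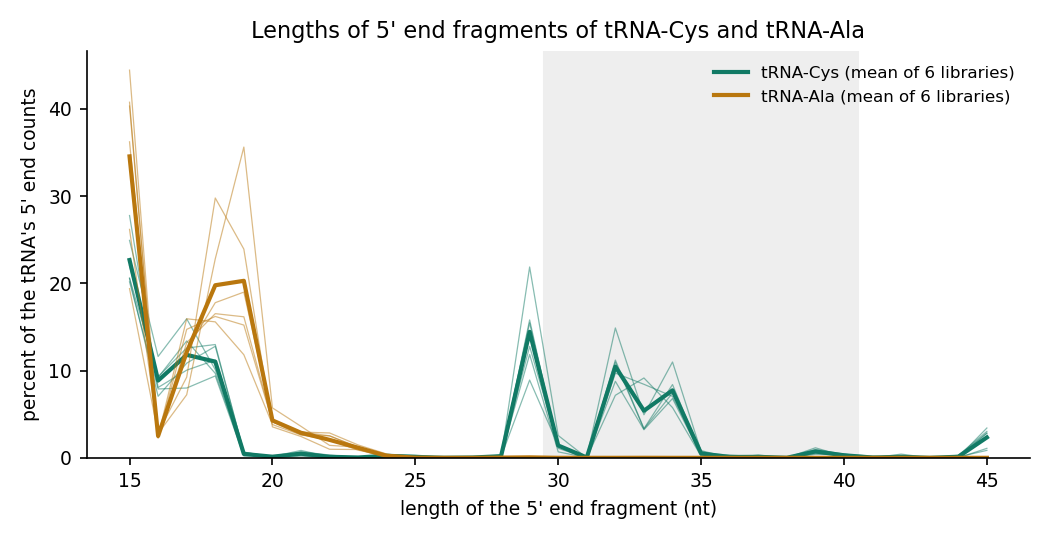
Share of each tRNA's 5′ counts (y axis, percent) by fragment length in nt (x axis) for tRNA-Cys and tRNA-Ala. Thin lines are the 6 libraries and thick lines their means. Grey marks 30 to 40 nt, where tRNA-Cys held 20.8% to 34.3% and tRNA-Ala at most 0.0406%.

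The short 5′ fragments ended in the D loop. Fragments ending at positions 15 to 18 made up 45.5% to 62.6% of tRNA-Cys 5′ counts, less than the 52.2% to 78.5% of tRNA-Ala in 6 of 6 libraries (mean difference -14.6 ± 4.74 points, SD, n = 6; exact sign-flip permutation p = 0.0312, adjusted 0.0625). Against the pool of other nuclear tRNAs, at 38.8% to 53.4%, the tRNA-Cys share was higher in 5 of 6 libraries. That mean difference was 9.4 ± 8.35 points (SD, n = 6, exact sign-flip permutation p = 0.0938, adjusted 0.125). The 15-nt fragment GGGGGtatagctcag was the most abundant member, at 821, 1058 and 833 CPM in hypoxia and 553, 890 and 1003 CPM in normoxia. Its groups overlapped (log2 0.08, SE 0.59; edgeR adjusted p = 0.9999).

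The 18-nt fragment GGGGGtatagctcagtgg had 255, 464 and 406 CPM in hypoxia and 160, 304 and 282 CPM in normoxia. It was higher in hypoxia in 3 of 3 pairs, by 1.44 to 1.59 times, with overlapping groups. Its log2 change was 0.56 (SE 0.65; edgeR adjusted p = 0.9999). All 5′ fragments ending at position 18 made up 11.2%, 13.0% and 12.8% of 5′ counts in hypoxia and 9.39%, 9.69% and 10.1% in normoxia. It was the only one of 10 length ranges, some of which overlap, whose groups did not overlap (exact permutation p = 0.1, the smallest possible, adjusted 0.889 over the 10).

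The longer 5′ fragments ended at position 29, in the anticodon stem, and at 32, 33 and 34, in the anticodon loop. Those ending at 29 stood at 484, 678 and 378 CPM in hypoxia and 620, 654 and 490 CPM in normoxia. Those ending at 32 stood at 219, 594 and 630 CPM in hypoxia and 275, 464 and 363 CPM in normoxia. At these ends the order of the groups varied between library numbers. Those ending at 33 stood at 280, 178 and 209 CPM in hypoxia and 239, 140 and 133 CPM in normoxia. Those ending at 34 gave 176, 446 and 465 CPM in hypoxia and 200, 315 and 281 CPM in normoxia. In libraries 2 and 3 the hypoxia values at 32 and 34 were above the normoxia values, and in library 1 below them, while at 33 hypoxia was above normoxia in 3 of 3 pairs with overlapping groups. The log2 changes of the sums were 0.46 at 32 nt (SE 0.78), 0.42 at 33 nt (SE 0.41), 0.52 at 34 nt (SE 0.76) and -0.18 at 29 nt (SE 0.55), none called by edgeR.

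Internal fragments share some of these ends. Those ending at position 32 gave 772, 895 and 805 CPM in hypoxia and 1001, 784 and 696 CPM in normoxia. Those ending at position 39, past the anticodon, gave 2002, 476 and 338 CPM in hypoxia and 2104, 296 and 279 CPM in normoxia. Those ending at position 55, in the T loop, gave 1916, 312 and 257 CPM in hypoxia and 1451, 149 and 276 CPM in normoxia. At 39 and 55 the libraries numbered 1 stood above all others in both groups, while at 32 hypoxia library 1 was the lowest of its group and normoxia library 1 the highest of its group.

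Many internal fragments began in the D loop. Position 14 was the leading start in libraries 2 and 3 of both groups, and its level was 645 to 781 CPM across the 6 libraries. In the libraries numbered 1 position 16 led, with 813 CPM in hypoxia and 849.5 CPM in normoxia. Their share beginning in the anticodon loop was 7.68%, 8.26% and 9.64% in hypoxia and 6.47%, 7.15% and 6.51% in normoxia. It was the only one of 25 region shares of first or last bases whose groups did not overlap (exact permutation p = 0.1, the smallest possible, adjusted 0.882 over the 25).

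**Figure D3:**
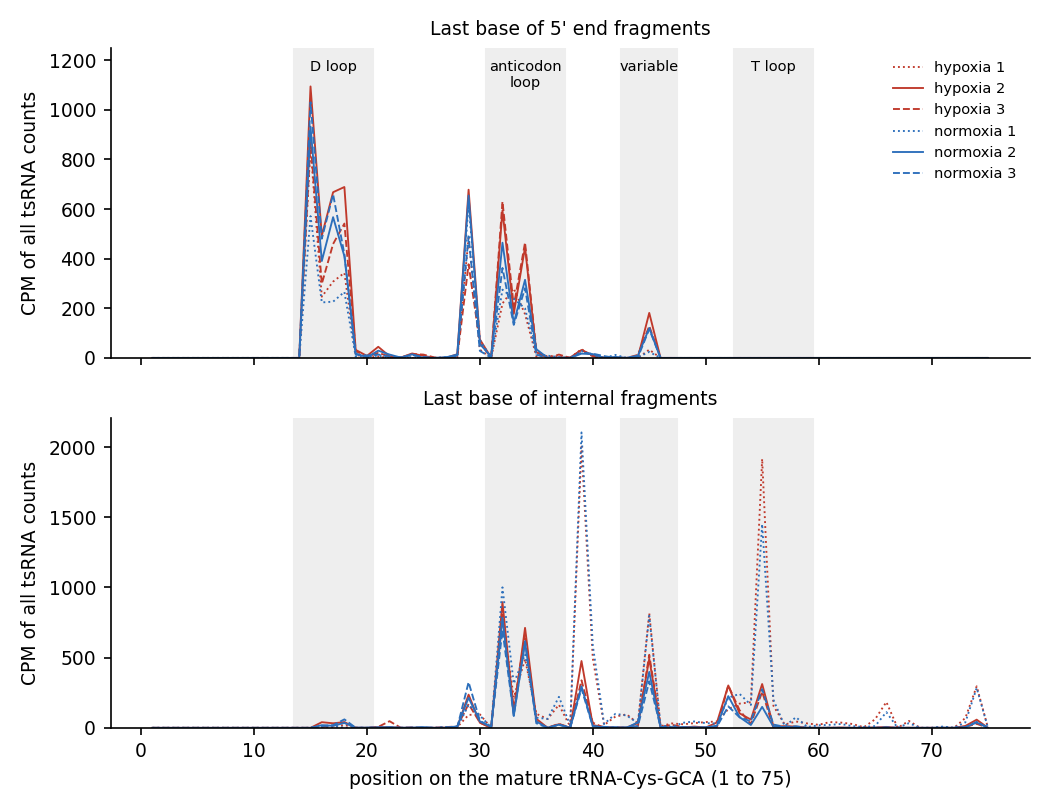
CPM of all tsRNA counts (y axis) by the tRNA position of the last base (x axis), for 5′ fragments above and internal fragments below. Hypoxia is red and normoxia blue, line style gives the library number, and grey marks the loops and the variable region. Ends at 39 and 55 among internal fragments were highest in the libraries numbered 1 (2002 and 2104 CPM at 39).

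The fragments came in several sequence forms. A G in place of the T at position 16 of the D loop, T16G, was held by 16361 of 51614 counts that cover the position, or 31.7%. Its share was 23.1%, 33.9% and 35.2% in hypoxia and 26.3%, 30.8% and 28.8% in normoxia (exact permutation p = 0.6). C50T, in the T stem, held 24.2% of the counts that cover its position, at 31.2%, 23.2% and 19.9% in hypoxia and 30.7%, 16.4% and 23.2% in normoxia (exact permutation p = 0.8). Neither share differed between groups beyond its spread. Of 20 substitutions seen, 6 had at least 100 counts, and the others of these were T6C (2.96%), C68T (2.95%), G62A (2.80%) and G1T (0.692%).

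Some substitutions occurred together. All 33 sequences with T6C that also cover position 16 held T16G, with 1121 counts, and 0 sequences held T6C without it. Positions 50 and 62 face each other in the T stem. All 13 sequences with G62A that also cover position 50 held C50T, with 30 counts, and 0 held G62A alone. Together the 2 changes put a T-A pair in place of the C-G pair. C50T without G62A, in 52 sequences with 237 counts, leaves T facing G. The fragments below show both forms of the pair, with positions 50 and 62 in capitals.
C-G form, 28 to 66: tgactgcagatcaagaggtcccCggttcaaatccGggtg
T-A form, 27 to 66: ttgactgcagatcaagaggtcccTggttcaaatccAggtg
Gene sequences were not used here, so the forms were not assigned to gene copies, and whether a read error or a modified base gave any of them was not tested.

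The share of T16G depended on where the 5′ fragment ended. This comparison was chosen after its values were seen and is given as a description. The forms are shown with position 16, and position 6 where it differs, in capitals.
16 nt with T16G: gggggtatagctcagG
16 nt without: gggggtatagctcagT
29 nt without: gggggtatagctcagTggtagagcatttg
29 nt with T16G: gggggtatagctcagGggtagagcatttg
32 nt with T16G: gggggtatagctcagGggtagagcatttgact
32 nt with T6C and T16G: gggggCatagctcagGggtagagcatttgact
Fragments of 16 nt, which end on the differing base, held T16G in 94.8% to 100% of counts across the 6 libraries. At 17 nt the share was 16.1% to 29.6%, and at 29 nt it was 7.64% to 14.4%. At 32 nt it was 35.0% to 52.7%, and at 34 nt 20.1% to 54.6%. In every library the share at 16 nt was above that at every other end with at least 1000 counts, and that at 29 nt was below that at 32 nt. The share of T16G thus differed between end points within the same libraries. At 16 nt the sequence with T16G equals the 15-nt fragment with a G added at its end, and the 2 were not told apart. Those 3485 counts are also part of the T16G share over all fragments given above. At 17 nt the hypoxia shares (24.8%, 26.5% and 29.6%) lay above the normoxia shares (24.0%, 23.6% and 16.1%), the only one of 8 such ends whose groups did not overlap.

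**Figure D4:**
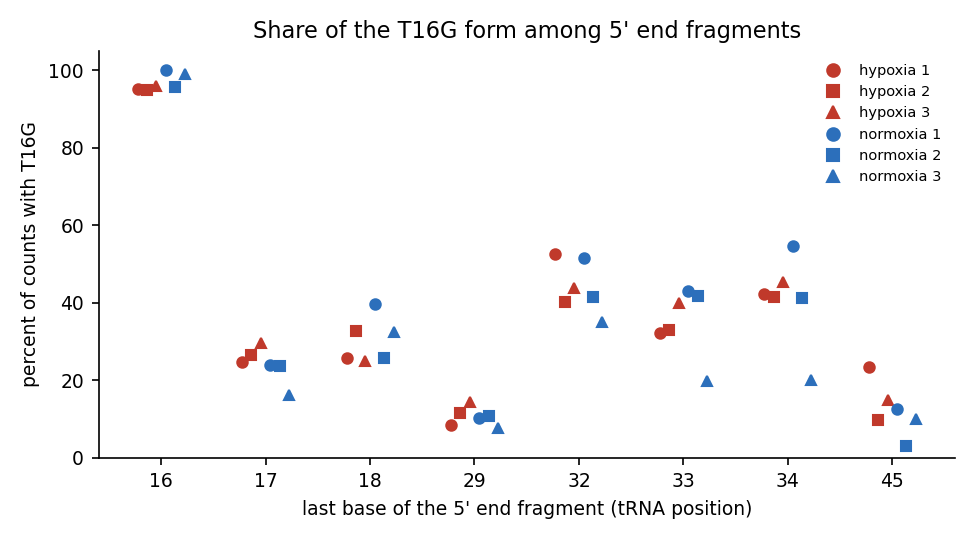
Percent of 5′ fragment counts that hold T16G (y axis) by the position of the fragment's last base (x axis), for ends with at least 1000 counts. Red is hypoxia, blue is normoxia, and the marker gives the library number. The share was 94.8% to 100% at position 16 and 7.64% to 14.4% at position 29.

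C50T also varied with the end of internal fragments, again chosen after its values were seen. With all libraries pooled it was 1.93% at fragments ending at position 52, 8.96% at 53, 18.9% at 54, 35.7% at 55 and 27.5% at 56. The values within a library were spread widely at 53 (2.33% to 15%), at 54 (9.21% to 32.6%) and at 56, where 5 libraries had such fragments (0% to 38.8%). At position 52 it was 16.2% and 8.45% in the libraries numbered 1 and at most 2.01% in the other 4. At position 55 it was 31.4% to 44.0% in all 6.

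Across single tsRNAs, edgeR called 0 of the 172 tested members, and 0% of all 6452 tested tsRNAs. At an unadjusted p under 0.05 it had 0 members higher (all tsRNAs 0.279%) and 0 lower (all 0.418%). DESeq2 and limma voom also called 0. Neither gave a member an unadjusted p under 0.05 (DESeq2: 0 higher and 0 lower, all 0.527% and 0.775%; voom: 0 and 0, all 0.868% and 0.821%). With the replicate number as a block, 0 members were called, where 0.155% of all were, and 6 had an unadjusted p under 0.05, of which 5 were higher (2.91%, all 3.41%) and 1 lower (0.581%, all 2.98%). In libraries 2 and 3 alone 0 of 180 were called, where 0.0154% of all were. There 11 had an unadjusted p under 0.05 and a higher level (6.11%, all 4.52%) and 2 a lower one (1.11%, all 4.89%).

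More fitted changes were above 0 than below. Of the 172 members, 113 had a log2 change above 0 (65.7%, all tsRNAs 51.3%), with a median of 0.21 against 0.02. With each library left out in turn the share above 0 was 59.3% to 65.5%, against 49.7% to 53.9% of all tsRNAs. The members at an unadjusted p under 0.05 varied more: without hypoxia library 1 they were 2 higher (1%, all 0.742%) and 6 lower (3%, all 3.04%), and without normoxia library 1 they were 6 higher (2.96%, all 3.25%) and 0 lower (all 1%). By class the 113 above 0 were 26 of 37 from the 5′ end, 80 of 128 internal and 7 of 7 ending in CCA. On scaled CPM, 6 members had hypoxia wholly above normoxia (3.49%, all 2.71%) and 1 wholly below (0.581%, all 2.26%). Higher in all 3 pairs were 40 members (23.3%, all 15.2%), and lower in all 3 pairs were 11 (6.40%, all 13.1%). The members overlap in sequence and come from the same tRNA, so these counts are not independent. Sums by class and length gave 0 called of 53, where 0% of 2654 were, and 40 above 0 (75.5%, all 49.6%).

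**Figure D5:**
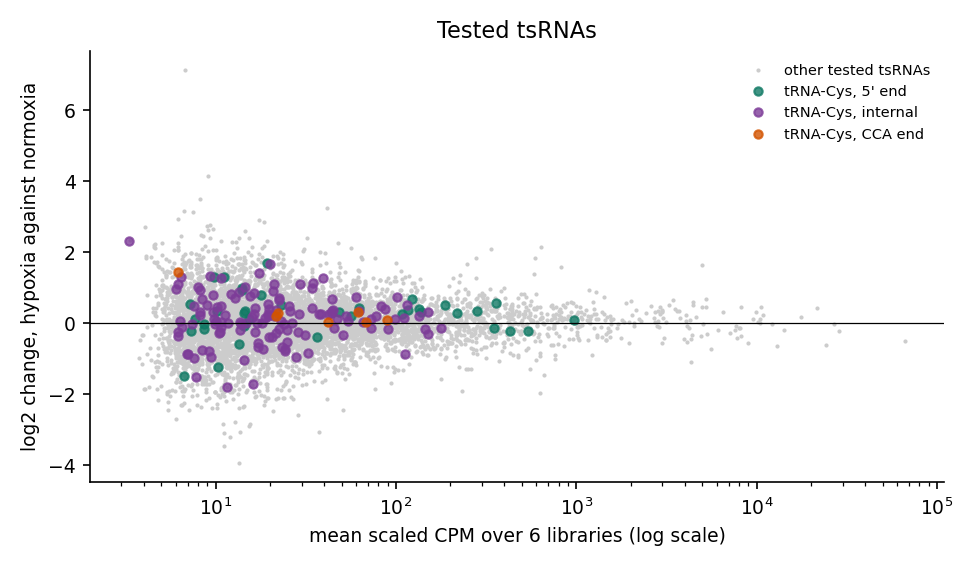
Log2 change of hypoxia against normoxia (y axis) by mean scaled CPM over 6 libraries (x axis, log scale) for the 6452 tested tsRNAs. Coloured points are the 172 tRNA-Cys members by class and grey points all others. 113 of the 172 lie above 0, and 0 passed the adjusted threshold.

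The 3 members with the smallest p in each direction are printed for the ends and forms they hold, with the run of G and the changed bases in capitals.
higher, 34 nt, T6C and T16G: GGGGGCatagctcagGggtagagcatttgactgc
higher, 40 to 54: aagaggtccccggtt
higher, 7 to 32: atagctcagtggtagagcatttgact
lower, 29 nt, T6C and T16G: GGGGGCatagctcagGggtagagcatttg
lower, 40 nt: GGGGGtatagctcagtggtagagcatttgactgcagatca
lower, 9 to 32, T16G: agctcagGggtagagcatttgact
The 34-nt 5′ fragment with T6C and T16G had 17.6, 22.6 and 37.9 CPM in hypoxia and 3.02, 10.4 and 8.59 CPM in normoxia. On plain CPM all hypoxia values lay above all normoxia values, on 1 to 65 counts per library, whereas the counts of separated members above used scaled CPM. Its log2 change was 1.69 (SE 0.83; edgeR unadjusted p = 0.0779, adjusted p = 0.9999), and with the block 1.74 (SE 0.69; unadjusted p = 0.0184, adjusted p = 0.629).

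The 29-nt fragment of the same form went the other way, with 1.96, 5.07 and 1.75 CPM in hypoxia and 12.1, 7.67 and 8.59 CPM in normoxia, on 1 to 17 counts per library. On plain CPM all its hypoxia values lay below all normoxia values. Its log2 change was -1.50 (SE 0.89; edgeR adjusted p = 0.9999). The other 4 had log2 changes of 1.67 (SE 0.84), 1.10 (SE 0.70), -1.24 (SE 0.78) and -0.95 (SE 0.66) in the order printed, and none passed the threshold.

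Fragments with the CCA tail were mostly short. The leading one, atccgggtgccccctCCA, had 72.5, 103 and 74.1 CPM in hypoxia and 57.4, 87.5 and 83.5 CPM in normoxia, with overlapping groups (log2 0.08, SE 0.62; edgeR adjusted p = 0.9999). The 20-nt fragment aaatccgggtgccccctCCA had 221, 8.58 and 9.92 CPM in hypoxia and 148, 6.76 and 32.5 CPM in normoxia, so that it was highest in the libraries numbered 1. Its log2 change was 0.30 (SE 1.31), and without hypoxia library 1 it was -2.20.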

How the data were processed

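Raw counts per distinct tsRNA sequence of 15 to 45 nt were used as the authors deposited them, with no normalization. The submitters' processing notes name the build mm10, while for aligner and tRNA reference the sources used here give no name. Titles of the samples gave each library its group and number.

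All tests across tsRNAs were fitted on the whole table by the quasi-likelihood test of edgeR 4.0.16 (R 4.3.3) after filterByExpr and TMM scaling, at a Benjamini-Hochberg adjusted p under 0.05, for single tsRNAs, tRNA families, class sums and class by length sums. DESeq2 1.42.0 and limma 3.58.1 (voom) were alternatives, with other scalings and filters, the replicate block and each library left out. The fits were tested on simulated data with less spread than these libraries and no deviation shared between libraries. That test therefore does not show which changes could be found here. CPM is counts per 1000000 tsRNA counts. Shares were compared by exact permutation, written in Python 3.11.15 with NumPy 2.4.6 and pandas 2.3.3. Figures were drawn with matplotlib 3.10.9. The tRNA was assembled from a 45-nt 5′ fragment by steps of at least 15 nt overlap, and each member was placed on it without gaps at its fewest mismatches. RefSeq gave the gene locations.

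Same-numbered libraries deviated together from their group means (correlations 0.774, 0.497 and 0.416). Correlations between libraries of different numbers were not computed, and both libraries numbered 1 stood apart. These values therefore cannot show that the numbers pair the libraries. Titles of the samples state no pairing. The named tsRNAs were any called, the 4 most abundant per class and the 3 with the smallest p per direction, with the 3 families most like the tRNA-Cys sum, tRNA-Ala and mitochondrial tRNA-Cys. The members, lists and tests were chosen with earlier results of these data known. Reads had no molecular identifiers that are stated, so counting error is a lower bound.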

Additional observations from a re-analysis of the deposited data

How the results depend on the processing

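The number of members and of class by length sums called was 0 under all alternatives. The family sum stayed above 0 in all 18, from 0.06 to 0.32, with edgeR, DESeq2 or limma adjusted p from 0.194 to 0.999. DESeq2 size factors moved its value from 0.14 to 0.32 and the median of all families from -0.07 to 0.11. The internal and CCA sums kept their sign, with ranges of 0.08 to 0.31 and 0.03 to 0.26 when 1 library was left out. The 5′ sum ran from -0.25 to 0.52, below 0 without hypoxia library 2 (-0.25) or normoxia library 1 (-0.22). The difference in 5′ share ran from -11.2 to 9.14 points, above 0 without hypoxia library 1 (9.14), normoxia library 2 (5.07) or normoxia library 3 (4.45), and it was 1.24 with fragments of at least 18 nt. The log2 ratio of tRNA-Cys to tRNA-Ala ran from -0.31 to 1.23, below 0 without hypoxia library 1 (-0.31) or normoxia library 3 (-0.05). The cause was not tested. With the replicate block the family sum was 0.13 (SE 0.15; edgeR adjusted p = 0.678), and the block changed no call. The block with DESeq2 size factors, chosen after seeing the data, gave 0.30 (SE 0.12; edgeR adjusted p = 0.194). Depth limits rare members most, since 731 of 1164 had under 10 counts.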
